A study of Mus musculus with 4 samples.

Results

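Levels of 10 genes for T-cell surface chains were followed in mouse thymus: the CD3 chains Cd3d, Cd3e, Cd3g and Cd247, the co-receptors Cd4, Cd8a and Cd8b1, and the accessory receptors Cd5, Cd6 and Cd28. They were taken by symbol from a table of 10598 genes. All 10 were listed, and all 10 had a mean of at least 10 normalised counts. The 4 libraries, 1 per group, were of thymus from C57BL/6J mice. Wild-type mice and CAMKIIgamma-/- mice, in which the kinase gene Camk2g is deleted, were each studied with vehicle and with N-methyl-N-nitrosourea (MNU). The groups are called vehicle wild type, MNU wild type, vehicle knockout and MNU knockout, and 4 values in a row follow that order. MNU is an alkylating mutagen that induces T-cell lymphoma in mice. Mice aged 4 to 5 weeks had received 1 intraperitoneal dose of 75 mg/kg, and the treatment time is labelled 6 months for MNU and vehicle alike. The study asked how loss of the kinase bears on that lymphoma. The labels name no Cre driver for the knockout and do not say whether RNA of several mice was pooled. With 1 library per group no difference below has a replicate check, and no p-value is given.

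Values summed to between 32911362 and 34836257 normalised counts per library, with low values in steps of about 1 unit. Camk2g, the deleted gene, was at 2749, 3173, 489 and 29.7, so that the vehicle knockout library held 17.8% of the vehicle wild-type level and the MNU knockout 1.08%. A set of 42 genes was over 1000 in MNU wild type and over 20-fold lower in vehicle wild type and in MNU knockout. Above the mean of those 2 libraries, the vehicle knockout held a median of 15.4% of their MNU wild-type level (lowest 13.2%, highest 21.4%). None of the 10 surface genes was among the 42. Results that use this library are therefore given also with that share of the MNU wild-type profile subtracted from it, and the differences of the 10 genes also with another library in its place. The thymus label was checked on epithelial markers. Foxn1, the transcription factor of thymic epithelium, was at 821, 706 and 569 outside MNU wild type and was listed at 0 there. The 9 measured epithelial markers together summed to 74531, 2259, 76094 and 57663, and 3 of them were under 10 in MNU wild type.

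Every T-cell receptor reaches the surface only together with the CD3 chains, which carry the tyrosine motifs that start signalling once the receptor binds a peptide held by an MHC molecule. CD4 binds MHC class II and CD8, a dimer of an alpha and a beta chain in thymocytes, binds MHC class I, and both bring the kinase LCK to the receptor. Thymocytes are staged by them: cells without either co-receptor are the earliest, cells with both are the most abundant in a healthy thymus, and cells with only 1 of the pair are the most mature. CD5 and CD6 are related scavenger-type receptors that dampen the signal, and CD5 is known to follow its strength. CD28 is the main co-stimulatory receptor and binds CD80 and CD86.

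All 10 genes were lower in MNU wild type than in vehicle wild type, beside 50.3% of all genes, and to very different extents. Cd5 stood at 20.8% of its vehicle level, Cd28 at 36.5% and Cd8b1 at 47.7%, while Cd8a stood at 85.2% and Cd247 and Cd3d at 77.2% and 77.1%. In knockout thymus all 10 were higher with MNU than with vehicle, by between 1.12-fold and 1.66-fold, beside 52.9% of all genes. Over the 4 libraries Cd5 spanned the widest range of the 10, 4.80-fold between its highest and lowest library, which were the wild-type pair. Cd8a spanned 1.32-fold and Cd3d 1.34-fold, and with the share subtracted Cd8a spanned 1.35-fold. Because whole tissue was sequenced, fewer cells that carry a gene and less RNA per cell cannot be told apart here.

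**Figure D1:**
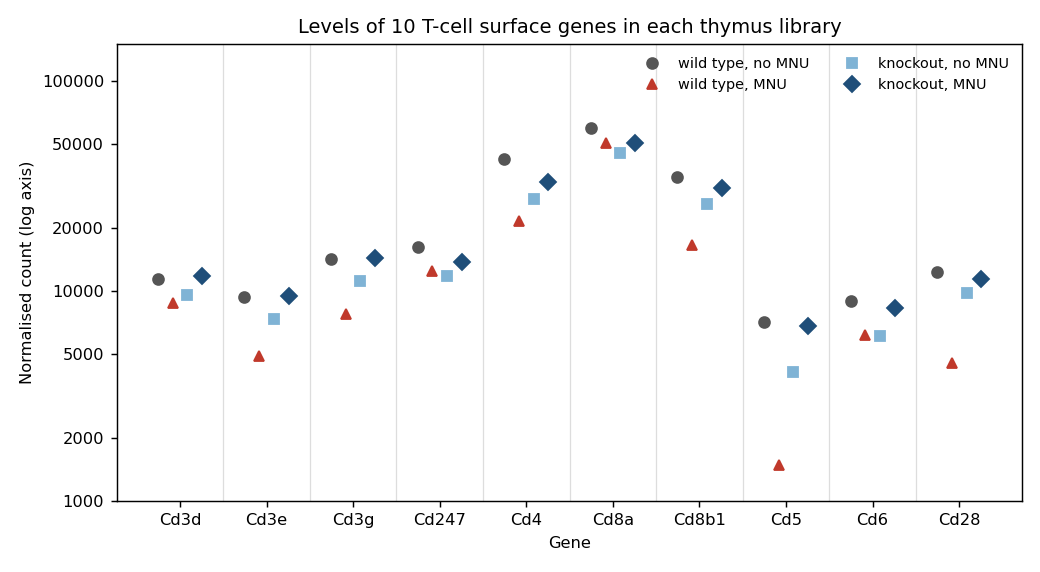
Normalised count (log axis) of each of the 10 genes in the 4 libraries, 1 point per library, with vehicle written as no MNU. MNU wild type (triangles) is the lowest library for 7 genes, and vehicle knockout (squares) is the lowest for Cd247, Cd8a and Cd6.

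Among the CD3 genes Cd3e and Cd3g were lower in MNU wild type by more than Cd3d and Cd247. Cd3e, whose product pairs with both the gamma and the delta chain, stood at 9345, 4920, 7312 and 9411. Cd3g, for the gamma chain, stood at 14126, 7735, 11196 and 14347. Both genes were thus lowest in MNU wild type, at 52.6% and 54.8% of the vehicle level, and MNU knockout was within 1.02-fold of vehicle wild type. Cd3d, for the delta chain, stood at 11386, 8779, 9544 and 11742, and Cd247, for the zeta chain with its repeated signalling motifs, at 16149, 12463, 11760 and 13659. For Cd3d the order of the libraries was that of Cd3e and Cd3g with smaller gaps, whereas Cd247 was lowest in vehicle knockout. The ratio of Cd3e to Cd3d was 0.821, 0.560, 0.766 and 0.801. Cd3g to Cd3d gave 1.24, 0.881, 1.17 and 1.22, and Cd247 to Cd3d gave 1.42, 1.42, 1.23 and 1.16. Subtraction of the share gave 0.800, 1.22 and 1.20 for these 3 ratios in vehicle knockout. Gene length cancels when such a ratio is compared between libraries, and by this measure the delta and zeta chains kept their proportion in MNU wild type while the epsilon and gamma chains were lower against them. Cd247 overlaps Pou2f1 in the RefSeq gene table, and no source used here says whether counting used strand, so that reads of the overlap cannot be told apart and Cd247 is uncertain to that extent. Pou2f1 itself stood at 4542, 5437, 3931 and 4357.

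The promoters of the CD3 cluster and of Cd5 are shown because Cd3g, Cd3d and Cd3e are next to each other in the genome and differed unequally, and because Cd5 had the largest difference of the 10. Of the 10 genes, 6 had a promoter in the RefSeq table (build GRCm38.p6, which is not the mm9 build named in the submitters' processing notes). The 250 bases before the gene start are printed 5′ to 3′ on the gene's strand. They lie at chr9:44980432-44980681 (minus strand) for Cd3g, chr9:44981536-44981785 (plus strand) for Cd3d, chr9:45009612-45009861 (minus strand) for Cd3e, chr19:10738975-10739224 (minus strand) for Cd5 and chr6:71373177-71373426 (plus strand) for Cd8a, the gene with the smallest MNU difference in wild type. Capitals mark matches on either strand to the ETS core AGGAAG and the E-box CANNTG, which do not overlap each other here.
Cd3g: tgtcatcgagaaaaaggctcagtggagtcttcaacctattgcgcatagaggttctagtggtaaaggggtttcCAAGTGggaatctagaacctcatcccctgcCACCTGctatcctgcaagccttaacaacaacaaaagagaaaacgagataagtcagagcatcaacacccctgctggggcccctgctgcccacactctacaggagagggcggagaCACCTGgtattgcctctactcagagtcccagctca
Cd3d: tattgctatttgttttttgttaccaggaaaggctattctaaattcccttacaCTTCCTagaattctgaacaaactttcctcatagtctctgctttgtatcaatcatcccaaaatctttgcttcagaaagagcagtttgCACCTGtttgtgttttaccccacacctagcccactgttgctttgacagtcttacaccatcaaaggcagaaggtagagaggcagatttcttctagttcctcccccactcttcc
Cd3e: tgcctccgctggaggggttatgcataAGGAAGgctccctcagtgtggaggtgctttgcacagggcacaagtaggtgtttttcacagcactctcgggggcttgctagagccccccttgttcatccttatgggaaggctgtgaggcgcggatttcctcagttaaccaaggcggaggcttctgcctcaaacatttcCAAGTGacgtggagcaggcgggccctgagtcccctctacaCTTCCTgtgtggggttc
Cd5: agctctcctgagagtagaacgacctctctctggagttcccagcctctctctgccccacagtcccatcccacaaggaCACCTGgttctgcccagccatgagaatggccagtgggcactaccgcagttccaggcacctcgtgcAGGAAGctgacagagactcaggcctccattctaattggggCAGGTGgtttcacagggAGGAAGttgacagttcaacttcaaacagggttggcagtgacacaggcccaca
Cd8a: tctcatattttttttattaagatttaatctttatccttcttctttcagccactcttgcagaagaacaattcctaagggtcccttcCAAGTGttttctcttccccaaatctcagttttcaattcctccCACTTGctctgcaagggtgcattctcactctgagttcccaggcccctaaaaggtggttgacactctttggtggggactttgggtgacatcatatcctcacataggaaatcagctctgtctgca
An E-box match was present in 6 of the 6 promoters, and 66% of 27025 promoters of the same length held one. An ETS core was present in 4 of 6 (Cd247, Cd3d, Cd3e and Cd5), against 29.2% of all promoters. Cd3e and Cd5 each had 2 ETS matches, while Cd3g and Cd8a had none of these letters in the window. The RUNX letters TGTGGT and the TATA letters TATAAA were found in 0 of 6 (14.2% and 13% of all promoters). The TCF letters CTTTGA were found only in Cd3d, which held 2 matches (14% of all promoters). The GATA letters AGATAA and the SP letters GGGCGG were found only in Cd3g (10.3% and 32.9% of all promoters). The RBPJ letters TGGGAA were found in 4 of 6 (Cd8a, Cd3g, Cd3e and Cd5, against 21.5%), and in Cd3g the match overlaps an E-box. Cd3e and Cd3g, whose levels were alike in order and size of difference, thus differed in these letters, and a match is a description of the sequence and no evidence of binding.

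The co-receptors separated into Cd8a on one side and Cd4 with Cd8b1 on the other. Cd4 stood at 42622, 21616, 27365 and 33005. Cd8b1, the beta chain that distinguishes the thymocyte form of CD8 from the alpha homodimer, stood at 34750, 16579, 25861 and 30741. Cd8a, the alpha chain common to both forms, stood at 59567, 50774, 45133 and 50518. Cd4 and Cd8b1 were thus 1.97-fold and 2.10-fold lower with MNU in wild type, just under and just over the 2-fold rule, and Cd8a was 1.17-fold lower. In MNU wild type Cd8a was about level with MNU knockout, whereas Cd4 and Cd8b1 were lowest there. The ratio of Cd4 to Cd8a was 0.716, 0.426, 0.606 and 0.653, and that of Cd8b1 to Cd8a was 0.583, 0.327, 0.573 and 0.609. MNU wild type stood below the other 3 libraries in both. After subtraction the vehicle knockout had 0.644 and 0.625. Cd4 to Cd8b1 differed less, at 1.23, 1.30, 1.06 and 1.07, with the wild-type libraries above the knockout libraries (1.03 in vehicle knockout with the share subtracted). Cd8a is also carried by some dendritic cells. Of the 8 dendritic markers listed, Itgax (930, 303, 1668 and 2591) and Batf3 (128, 51.9, 158 and 254) were measured, and both were lowest in MNU wild type. The part of dendritic cells in the Cd8a level was not tested.

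Among the accessory receptors Cd5 and Cd28 were over 2-fold lower in MNU wild type and Cd6 was 1.45-fold lower. Cd5 stood at 7081, 1476, 4090 and 6793. Cd6, its neighbour and relative, stood at 8944, 6186, 6068 and 8249, and Cd28 at 12364, 4512, 9772 and 11384. The ratio of Cd5 to Cd6 was 0.792, 0.239, 0.674 and 0.823. Against vehicle wild type it was 3.32-fold lower in MNU wild type, 1.17-fold lower in vehicle knockout (1.05-fold with the share subtracted) and 1.04-fold higher in MNU knockout. Set against the geometric mean of the 4 CD3 genes, which itself was 12482, 8033, 9791 and 12131, Cd5 was 3.09-fold and Cd28 1.76-fold lower in MNU wild type. Cd6 was 1.07-fold higher and Cd8a 1.32-fold higher by the same measure. The difference of Cd5 and Cd28 in that library was therefore larger than that of the CD3 genes as a group.

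**Figure D2:**
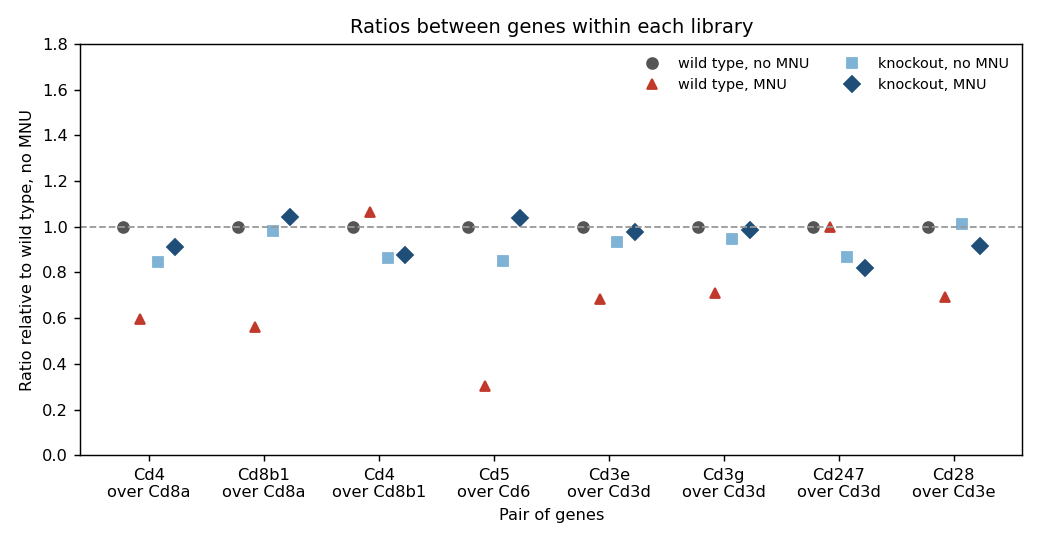
Ratio between pairs of genes within each library, divided by the same ratio in vehicle wild type (dashed line at 1), 1 point per library. MNU wild type (triangles) lies lowest for Cd4 over Cd8a, Cd8b1 over Cd8a, Cd5 over Cd6, both CD3 ratios to Cd3d with Cd3e or Cd3g, and Cd28 over Cd3e.

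Levels were compared between genes only after division by transcript length, taken from the longest principal transcript in GENCODE M21, since no source used here names the annotation behind the counts. In normalised counts per kilobase, vehicle wild type ran from Cd8b1 (23432) and Cd8a (19043) through Cd3g (13808), Cd4 (13714), Cd247 (9895), Cd3d (7041) and Cd3e (6392) to Cd5 (3426), Cd6 (2950) and Cd28 (2844). Neighbours such as Cd3g and Cd4, or Cd6 and Cd28, were close, and with 1 library their spread is unknown. The MNU knockout had the same order. In MNU wild type Cd8a (16232 per kilobase) came before Cd8b1 (11179), and Cd5 (714) was last, below Cd28 (1038). As deposited, Cd5 was last in vehicle knockout too, at 1979 beside 2001 for Cd6 and 2248 for Cd28. With the share subtracted, Cd5 there went from 4090 to 4565 normalised counts and Cd6 from 6068 to 6046. Per kilobase Cd5 then came before Cd6. Both CD8 genes were first in every library on this scale.

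The call rule was 2-fold or more, taken as 1 or more in either direction on the log2(value + 10) scale. For MNU in wild type, 3 of the 10 were lower (Cd5 -2.25, Cd28 -1.45 and Cd8b1 -1.07 as log2 differences) and 0 higher. Of all 10587 genes kept, 14.2% were lower and 7.14% higher by that rule. Just inside the rule was Cd8b1, and just outside were Cd4 (-0.98), Cd3e (-0.92) and Cd3g (-0.87). The median log2 difference of the 10 was -0.90, beside -0.01 for all genes. For knockout against wild type, both with MNU, 2 of 10 were higher (Cd5 4.60-fold and Cd28 2.52-fold) and 0 lower, beside 15.0% of all genes higher and 7.37% lower. Cd3e, Cd3g and Cd8b1 were 1.91-fold, 1.85-fold and 1.85-fold higher there, Cd4 was 1.53-fold higher, and Cd8a was within 1.01-fold. That comparison and the one of MNU in wild type share the MNU wild-type library, so they are not separate evidence.

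**Figure D3:**
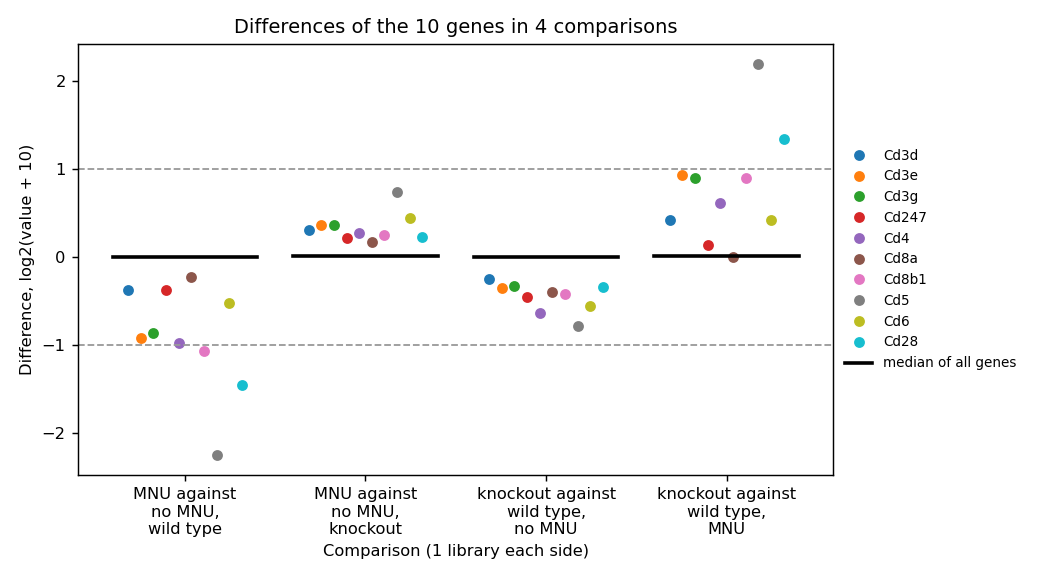
Log2(value + 10) difference of each of the 10 genes in 4 comparisons of 1 library against another, with the median of all genes as a black line and the 2-fold rule dashed. The genes lie between -2.25 and -0.23 for MNU in wild type, between 0.16 and 0.73 for MNU in knockout and between -0.79 and -0.25 for vehicle knockout.

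In knockout thymus the 10 genes were higher with MNU, and none reached 2-fold. Cd5 was 1.66-fold higher, Cd6 1.36-fold, Cd3e 1.29-fold and Cd3g 1.28-fold, down to Cd8a at 1.12-fold. The median log2 difference was 0.28 beside 0.01 for all genes, of which 0.331% were at least 2-fold higher and 2.95% lower. After subtraction of the share from the vehicle knockout, all 10 were still higher, by between 1.06-fold (Cd28) and 1.49-fold (Cd5), with a median of 0.25. The subtraction also raised the share of all genes that were higher, from 52.9% to 61.1%. With vehicle wild type in place of the vehicle knockout, 7 of the 10 turned to lower and 3 (Cd3d, Cd3e and Cd3g) were higher by at most 1.03-fold. Against that reference Cd4 was 1.29-fold, Cd247 1.18-fold and Cd8a 1.18-fold lower in MNU knockout, and Cd5 was 1.04-fold lower. No gene of the 10 reached 2-fold in this setting either, beside 1.57% of all genes higher and 1.11% lower. This setting compares libraries that differ in genotype and treatment together. Whether the 7 turned directions come from the vehicle knockout library or from genotype cannot be told apart here.

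With vehicle, all 10 genes were lower in knockout than in wild type, by less than 2-fold. Cd5 was 1.73-fold lower, Cd4 1.56-fold, Cd6 1.47-fold and Cd247 1.37-fold, and the smallest difference was that of Cd3d at 1.19-fold. The median log2 difference was -0.41 beside -0.00 for all genes, of which 0.359% were at least 2-fold lower and 2.59% higher. With the share subtracted all 10 remained lower, between 1.15-fold (Cd28) and 1.55-fold (Cd5), with a median of -0.38. Of all genes, 50.1% were lower as deposited and 57.3% with the share subtracted. With MNU knockout in place of the vehicle knockout, 7 were lower and Cd3d, Cd3e and Cd3g were not.

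The share of 15.4% was set against each gene's own values. The level that such a share of MNU wild type would give, when mixed with the mean of vehicle wild type and MNU knockout, was computed for each gene. All 10 genes in the vehicle knockout library were under that level, at between 0.671 (Cd5) and 0.910 (Cd28) of it, with a median of 0.836. Cd5, for example, stood at 4090 where the share gave 6098, and Cd4 at 27365 where it gave 35324. The same count was not made over all genes, so there is no background to set it against. The level also takes that mean as the vehicle knockout without the share, which was not tested. Cd247, Cd8a and Cd6 stood lower in the vehicle knockout than in each of the other 3 libraries, also with the share subtracted (11633, 44108 and 6046). Markers of other cells also differed between the libraries. The 8 measured B cell markers of 10 summed to 3803, 2827, 6215 and 10073. The 6 NK cell markers of 9 summed to 2563, 2012, 4920 and 4903, and the 8 macrophage markers of 10 symbols to 19470, 36856, 31400 and 36374. Among those symbols Emr1 and Adgre1 name the same gene, measured as Emr1. The vehicle knockout sums after subtraction were 6830, 5448 and 30409. None of these markers was listed at 0 in any library, and all 8, 6 and 8 were higher in the vehicle knockout than in vehicle wild type, also with the share subtracted. Their part in the lower levels of the 10 genes was not tested. The 9 double-positive thymocyte markers outside the 10 genes were all lower in that knockout library, with a median log2 difference of -0.48 (-0.42 with the share subtracted).

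**Figure D4:**
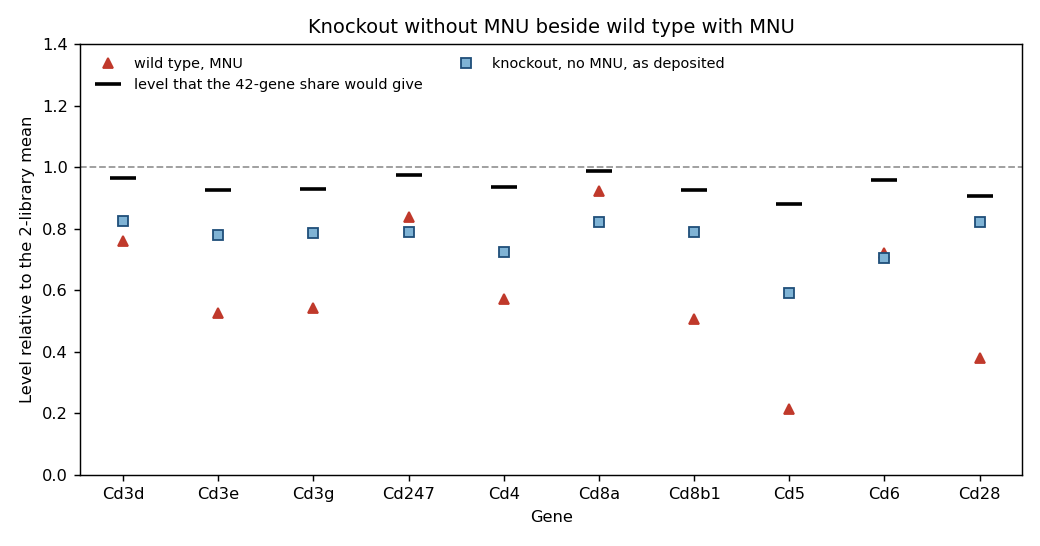
Level of each of the 10 genes in vehicle knockout (squares) and MNU wild type (triangles), divided by the mean of vehicle wild type and MNU knockout (dashed line at 1), with bars for the level that a 15.4% share of MNU wild type would give. All 10 squares lie under their bars, and those of Cd247, Cd8a and Cd6 lie under the triangles too.

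Factors known to act on the Cd4 and Cd8 genes differed among themselves in direction and size. Zbtb7b, which encodes ThPOK, the factor that holds cells in the CD4 lineage, stood at 1495, 188, 1455 and 1799. Runx3, which silences Cd4 in CD8 lineage cells, stood at 1003, 3409, 1562 and 1175. Zbtb7b was thus 7.97-fold lower and Runx3 3.40-fold higher with MNU in wild type. In that library Cd4 to Cd8a was lowest (0.426) and Cd4 to Cd8b1 highest (1.30), and a link of these ratios with the factors was not tested. Tox (4139, 1435, 3068 and 4191) and Gata3 (2910, 1305, 2104 and 2718), both needed for CD4 lineage cells, were 2.88-fold and 2.23-fold lower. Tcf7, the TCF1 gene that acts throughout T-cell development, was 2.07-fold lower (96028, 46392, 69746 and 82903). Of 23 regulators measured, 4 were at least 2-fold lower and 1 higher, near the 14.2% and 7.14% of all genes, and the median was -0.16. Runx1, Cbfb, Patz1 and Ikzf3 were within 1.17-fold. In knockout none of the 23 reached 2-fold with MNU (median 0.14, or 0.16 with the share subtracted), and none did between the genotypes with vehicle (median -0.23, or -0.28). Few of all genes reached it: 0.331% higher and 2.95% lower for MNU in knockout, and 2.59% and 0.359% between the genotypes. With the share subtracted Runx3 in vehicle knockout went from 1562 to 1227.

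**Figure D5:**
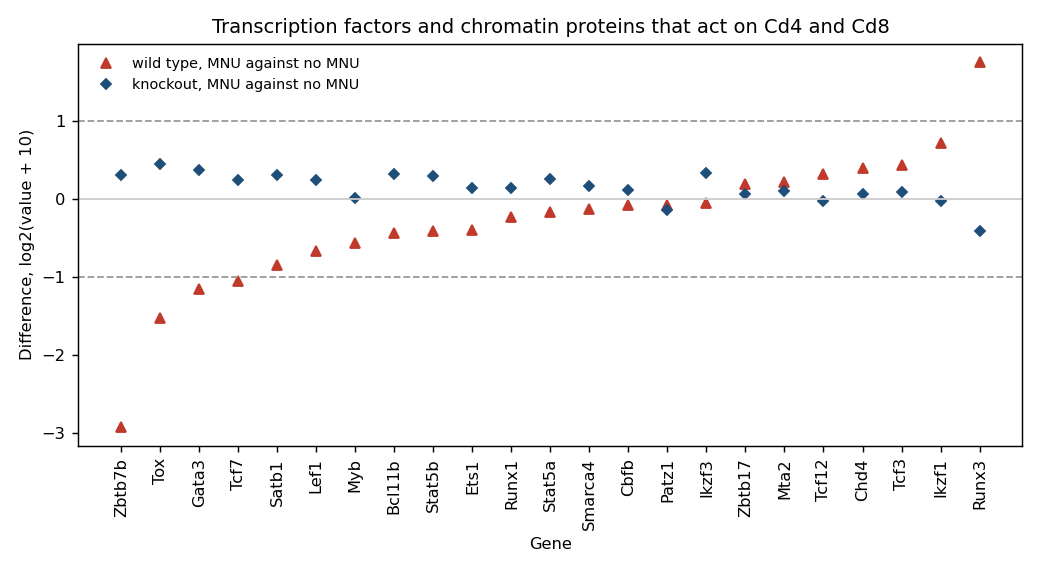
Log2(value + 10) difference with MNU of 23 genes for factors that act on the Cd4 and Cd8 genes, in wild type (triangles) and in knockout (diamonds), 1 library on each side, with the 2-fold rule dashed. In wild type Zbtb7b, Tox, Gata3 and Tcf7 lie below -1 and Runx3 above 1, and no knockout point reaches either line.

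Signalling proteins that act with the 10 inside the cell did not share 1 direction. The 23 measured were kinases, adaptors, phosphatases and others, not all of them direct binders. With MNU in wild type 3 were at least 2-fold lower and 2 were higher, near the 14.2% and 7.14% of all genes. Their median was -0.14. Lck, the kinase that CD4 and CD8 bind, was 1.59-fold lower (52941, 33350, 44246 and 50617), while Zap70, the kinase that binds the phosphorylated CD3 and zeta chains, was 2.26-fold higher (5992, 13525, 6866 and 6740). Themis, a regulator of thymocyte receptor signals, was 2.66-fold lower, Lcp2, the adaptor SLP-76, 2.43-fold lower, and Nck1, an adaptor that binds CD3 epsilon, 2.32-fold lower. Pik3r1, the p85 subunit that CD28 recruits, was 2.14-fold higher. None of the 23 reached 2-fold for MNU in knockout or between the genotypes with vehicle, as deposited or with the share subtracted. Few of all genes did as deposited: 0.331% higher and 2.95% lower for MNU in knockout, and 2.59% and 0.359% between the genotypes. Ptcra, the chain that stands in for the alpha chain in the pre-receptor, was 4.11-fold higher with MNU in wild type (1288, 5295, 1544 and 901), the only gene of 7 receptor assembly partners past 2-fold.

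Ligands of the 10 proteins, listed with related genes, were lower in MNU wild type as a list. Of 12 measured members 11 were at least 2-fold lower, beside 14.2% of all genes, with a median of -3.46. The list includes Cd74, the class II invariant chain (37.9-fold lower), and Icosl, the ligand of ICOS (10.4-fold lower). H2-Aa and H2-Eb1, class II chains to which CD4 binds, were 32.0-fold and 33.3-fold lower. H2-K1, a class I chain to which CD8 binds, was 4.43-fold lower, and B2m, its light chain, was at 44295 without and 50784 with MNU. Cd86, the CD28 ligand, was 3.10-fold lower (754, 243, 927 and 1354), and Alcam, a CD6 ligand, 18.2-fold lower (1166, 64.0, 1436 and 1280). Many of these genes are made by epithelial, dendritic and B cells. In that library 8 of 9 epithelial markers, 5 of 8 B cell markers and both dendritic markers were at least 2-fold lower, and Ms4a1, a B cell marker, stood at 413, 10.1, 648 and 1248. The other 3 B cell markers were higher there, with Blk past the rule at 3.13-fold. The part of these cell types in the ligand levels was not tested. None of the 12 reached 2-fold for MNU in knockout or between the genotypes with vehicle, with the share subtracted or not. As deposited, 0.331% of all genes were higher and 2.95% lower for MNU in knockout, and 2.59% and 0.359% between the genotypes.

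Other receptors of the T-cell surface ranged from 47.5-fold lower (Cd69) to 2.42-fold higher (Cd44) with MNU in wild type. Of 27 measured, 10 were at least 2-fold lower and 1 was higher, beside 14.2% and 7.14% of all genes. Their median was -0.85. Cd69, an early activation receptor, was at 1980 without and 41.7 with MNU, Btla at 943 and 39.8, Cd226 at 421 and 47.3, and Cd7 at 502 and 83.5. Thy1, a surface protein of all thymocytes, was 1.81-fold lower (46524, 25638, 37573 and 43942), close to Cd3e and Cd3g. For MNU in knockout none of the 27 reached 2-fold (median 0.29, or 0.22 with the share subtracted), beside 0.331% of all genes higher and 2.95% lower. Between genotypes with MNU 13 were higher and 0 lower (median 0.94), beside 15.0% and 7.37% of all genes.

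Stage markers were read beside the 10 genes. The counts stand beside 14.2% of all genes at least 2-fold lower and 7.14% higher with MNU in wild type. Of 8 measured markers of double-negative cells, 6 were at least 2-fold higher with MNU in wild type and 1, Il7r, was lower. Notch1 stood at 7913 without and 76273 with MNU, Il2ra at 2661 and 10124, and Dtx1 at 931 and 35307. Notch1 and Dtx1 were also at 18411 and 6307 in vehicle knockout, and at 7902 and 1039 once the share was subtracted. All 9 double-positive markers outside the 10 genes were lower, 7 of them at least 2-fold, with Rag1 3.79-fold lower (123683, 32664, 73746 and 99894) and Dntt 13.6-fold lower. Of 13 single-positive markers 10 were at least 2-fold lower and only Runx3 was higher, and Ccr7, the receptor of mature thymocytes, was at 2829 without and 41.7 with MNU. Of 8 macrophage markers 4 were at least 2-fold higher and 0 lower, and of 6 NK cell markers 4 were lower and 1 was higher. Of 3 measured regulatory T cell markers Ikzf2 was 2.10-fold lower, Il2ra was higher and Ctla4 was within 2-fold. Foxp3 and the 7 markers chosen for gamma-delta and innate-like T cells were not found under these symbols among the 10598 genes.

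Profiles most like those of the 10 genes were sought among 10471 genes with a mean of at least 100, by the Euclidean distance between log2 profiles over the 4 libraries, each centred on its own mean. The second nearest to Cd3e was Cd3g, at a distance of 0.042. Nearest to Cd3d was Bcl7b (0.013), to Cd3g the interferon-induced Gbp4 (0.024), to Cd4 the survival gene Bcl2l1 (0.041) and to Cd8a Phf2 (0.025). The second nearest to Cd8b1 was Tcf7 (0.046), and Bcl11b, a T-lineage transcription factor, was the third nearest to Cd6 (0.12). For Cd28 Rabgap1l was nearest (0.052). Cd5 had no close match: the nearest, Ift80, was at 0.20, and the nearest of the other 9 genes, Cd28, was at 0.70. These distances rest on 4 libraries and describe them only.

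Outside the group itself, some genes beside the 10 in the RefSeq gene table were close to their neighbours and others were not. Slc15a3, beside Cd6, was 1.54-fold lower with MNU in wild type, and Ube4a, beside Cd3g, 1.58-fold lower. Lag3, next to Cd4 and related to it, was 3.10-fold lower (846, 273, 795 and 1153). Rmnd5a, next to Cd8a, was 1.77-fold lower (54145, 30572, 40873 and 44348), more than Cd8a itself. Mpzl2, beside Cd3e, was 5.19-fold lower, and Ctla4, beside Cd28 and a member of its family, was 1.62-fold higher (456, 740, 628 and 464). Vps37c, next to Cd5, was 1.15-fold lower.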

How the data were processed

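RNA had been sequenced from thymus in 4 libraries, 1 per group, with TruSeq libraries of RNA whose integrity number was over 7.5, per the labels' protocols. The submitters' processing notes name TopHat2 2.0.8b, edgeR and mm9 without saying what each was used for. No source used here gives the counting tool, annotation, gene filter or normalisation. The deposited table holds 1 signal per gene and library, and its deposited name calls these normalised counts. Its values are not whole, so no result given here rests on a count model, counting interval or test. A counting interval served only to label how single genes moved under the alternatives, and those labels are not reported.

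Columns were matched to samples by title. Genes with a mean of at least 10 were kept (10587 of 10598), differences were taken on log2(value + 10), and fold differences of single genes are plain ratios. Gene lists, the genes named (all 10, up to 4 of each list with the largest wild-type MNU difference and a level of 100 or more, and the 3 nearest profiles) and the 10 genes themselves were chosen with earlier results of these data known. Other genes of a list are named as its examples, after their values were seen. The share was the median over 42 genes of vehicle knockout over MNU wild type, each less the mean of the other 2 libraries. Alternatives were pseudocounts of 2.5 and 40, no filter and a filter at 100, median-of-ratios and upper-quartile scaling, a 4-fold rule, the share subtracted, and another library in place of vehicle knockout. Analyses used Python 3.11.15, pandas 2.3.3 and numpy 2.4.6, and the 2-fold count was tested on simulated data.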

Additional observations from a re-analysis of the deposited data

Results flagged for a closer look

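For each of the 10 genes the MNU libraries differed in opposite directions between the genotypes: lower with MNU in wild type and higher with MNU in knockout. The difference between the genotypes was not tested, since each group had 1 library. As the log2 MNU difference in wild type minus that in knockout, it was -0.67 for Cd3d, -1.29 for Cd3e, -1.23 for Cd3g and -0.59 for Cd247. For the co-receptors it was -1.25 (Cd4), -0.39 (Cd8a) and -1.32 (Cd8b1). For the accessory receptors it was -2.99 (Cd5), -0.97 (Cd6) and -1.67 (Cd28). With the share subtracted from the vehicle knockout the values ran from -2.83 (Cd5) to -0.43 (Cd8a). With vehicle wild type in its place the vehicle level cancels. The values, from -2.19 (Cd5) to 0.01 (Cd8a), then only restate MNU wild type against MNU knockout and add no further check. Against vehicle wild type, 7 of the 10 were lower in MNU knockout.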

How the results depend on the processing

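With a 4-fold rule, 1 of the 10 genes (Cd5) was lower for MNU in wild type and 1 (Cd5) was higher for MNU knockout against MNU wild type. The other alternatives kept the counts of genes past the rule within 1.5 times. Upper-quartile scaling gave 4 for MNU in wild type, with Cd4 added at -1.01, and moved the median of all genes by under 0.04 on the log2 scale. Under that scaling Cd8a was 0.027 higher rather than -0.01 for MNU knockout against MNU wild type. With the share subtracted, genes of the whole table lower for MNU in knockout numbered 198 rather than 312, and genes higher in vehicle knockout 182 rather than 274. With another library in place of the vehicle knockout they numbered 117 and 166. Replacing the vehicle knockout library gave 1 comparison for both of its uses, MNU knockout against vehicle wild type, which differ in genotype and treatment together. In it 7 of the 10 genes were lower and 3 higher, so that 7 directions for MNU in knockout turned and 3 for vehicle knockout did. No paired analysis was possible because each group had 1 library. Leaving out a replicate could not be done for the same reason. With 1 library per group the spread between mice is unknown, and differences under 2-fold cannot be weighed against it.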
